A study of Mus musculus with 6 samples.

Results

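Antioxidant enzymes were followed in the livers of mouse embryos that lack the retinoblastoma gene, by way of the array probe sets assigned to them. The genes were the peroxiredoxins Prdx1, Prdx2, Prdx3 and Prdx4, catalase (Cat), the glutathione peroxidase Gpx1, the superoxide dismutases Sod1 and Sod2, thioredoxin (Txn1) and the modifier subunit of glutamate-cysteine ligase (Gclm). A probe set was taken where the platform annotation gave it a single gene symbol among these, which left 12 probe sets of 9 of the 10 genes, out of 8251 genes on the array with such a probe set. Prdx1 was left without a value because both of its probe sets also carry a second symbol. Prdx2, Cat, Gpx1 and Sod1 are treated as the red cell enzymes, and Txn1, Prdx3, Prdx4, Sod2 and Gclm are set beside them as the other enzymes.

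The livers came from 3 Rb null and 3 wild type embryos at embryonic day 12.5, all untreated and all from crosses of 129sv mice heterozygous for Rb. There was 1 Affymetrix array per embryo. The labels call the mutant embryos Rb null without naming the allele, and give neither sex nor batch. Whole livers were used, so every value is an average over all cell types of the organ.

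Oxygen metabolism yields superoxide and hydrogen peroxide, and haem iron makes red cells a strong source of both. Superoxide dismutases turn superoxide into hydrogen peroxide, which catalase, glutathione peroxidases and peroxiredoxins reduce to water. Peroxiredoxins draw their electrons from thioredoxin and glutathione peroxidases from glutathione, and both of these are kept reduced by NADPH. The fetal liver at this age is chiefly an organ of red cell formation, with hepatoblasts, macrophages, megakaryocytes, endothelium and mesenchyme alongside, and loss of Rb is known to impair the terminal maturation of red cells there.

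Expression is given as the MAS5 signal of a probe set, a linear brightness that the authors had scaled to a 2% trimmed mean of about 500.2 on every array. Log2 fold changes are Rb null minus wild type, after adding 50.02 signal units, and are given ± SE. Changes were tested with limma on the 6793 probe sets with a mean signal above 150.1, and p-values were adjusted by Benjamini-Hochberg over all of these. A gene is said to have risen or fallen only at an adjusted p below 0.05, and is represented by its brightest probe set unless stated otherwise. The brightness of different probe sets does not rank the amounts of their RNAs. Of the 5273 genes tested in this way, 9.5% were lower and 13.1% were higher in Rb null livers, and of the probe sets 9.08% and 12.8%.

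Rb1 was low in every mutant array, and bright probe sets leaned lower in the mutants. Rb1 read 139, 142 and 127 in the Rb null livers, against 791, 754 and 706 in wild type livers, although no source here says where its probes lie relative to the deletion. Log2 values of arrays correlated with r of 0.982 to 0.988 within a genotype and 0.966 to 0.973 between genotypes. With the tested probe sets divided by brightness into 10 equal bins, the median log2 fold change was -0.14 in the brightest bin (bin 10), against 0.09 in the dimmest (bin 1). Liver markers were bright, with the hepatoblast marker Alb at 13754 ± 258 in mutant and 15834 ± 825 in wild type livers and the red cell marker Slc4a1 at 5869 ± 350.1 in mutant and 8252 ± 479 in wild type livers (SD, n = 3 each). Some defining markers of scarcer cells were near the floor, such as Pf4 of megakaryocytes at 28.5 ± 22.1 in mutant livers and 26.0 ± 22.9 in wild type livers.

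Of the 9 measured enzymes, 4 fell in Rb null livers and none rose, beside 9.5% lower and 13.1% higher of all tested genes. Among the brightest 10% of tested genes these shares were 33.7% and 6.25%. Those that fell were Prdx2, Txn1, Sod2 and Gclm, each to between 79.1% and 85.2% of the wild type mean signal. Prdx2 was the sole red cell enzyme among them (1 of 4), and 3 of the 5 other enzymes fell. In bulk livers, fewer cells of a type cannot be told apart from less RNA per cell. At an unadjusted limma p below 0.05 the counts were 5 lower, Sod1 being the additional gene, and 0 higher, beside 15.8% lower and 20.7% higher of all tested genes at that cut. In 6 of the 9 genes the highest mutant embryo was below the lowest control embryo, an arrangement found for 17.6% of all tested genes, and in none was the reverse true, against 23.5% of tested genes. The plot of signals by embryo shows how small these differences were next to the level itself.

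**Figure D1:**
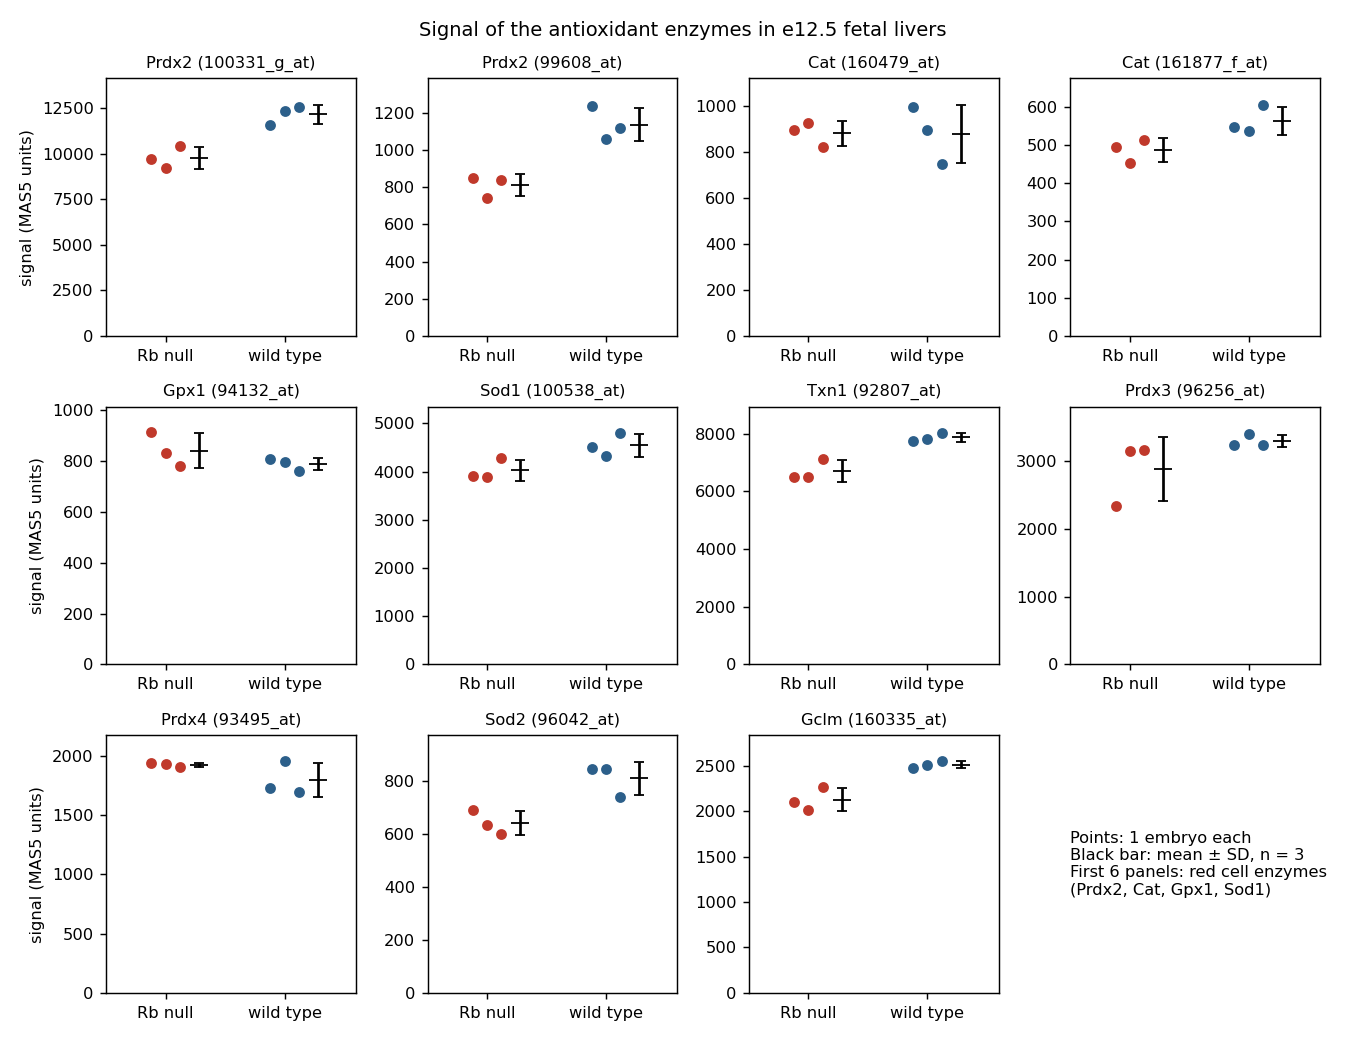
Signal (MAS5 units, axes from 0) of the 11 tested probe sets of the antioxidant enzymes in each embryo, Rb null left and wild type right, with the mean and SD of 3 embryos as black bars. Both Prdx2 panels show Rb null points wholly below wild type points, whereas the first Cat panel and the Gpx1 and Prdx4 panels show overlapping groups.

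Among the red cell enzymes, Prdx2, the abundant cytosolic peroxiredoxin of red cells, had the clearest fall. Its brightest probe set (100331_g_at) read 9704, 9230.0 and 10424 in Rb null livers, against 11580.5, 12364 and 12545 in wild type livers. No Rb null embryo reached the lowest wild type embryo. The means were 9786 ± 601 in mutant and 12163 ± 513 in wild type livers (SD, n = 3 each), a log2 fold change of -0.31 ± 0.06 (limma adjusted p = 0.0101).

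A dimmer Prdx2 probe set (99608_at) moved the same way and further. It read 850.2, 743 and 837.5 in Rb null livers and 1233, 1057 and 1117.5 in wild type livers, again without overlap. The change was -0.46 ± 0.08 (limma adjusted p = 0.00615), to 71.3% of the wild type mean. A further Prdx2 probe set (100330_at) gave almost no signal in any liver, at 3.1 to 4.5 in the mutants and 1.9 to 5.0 in the controls, and was not tested. The probe sets of this gene thus differed in brightness, and the tested ones were alike in direction.

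Sod1, the cytosolic copper-zinc superoxide dismutase, was lower in each Rb null embryo than in any wild type embryo but did not pass the test. Its signals were 3919, 3892.5 and 4282 in Rb null livers, against 4509, 4328 and 4809 in wild type livers. The change was -0.17 ± 0.06, with a 95% interval from -0.31 to -0.03 (limma adjusted p = 0.0822). The distance between the highest mutant embryo and the lowest control embryo was small beside the spread within each group.

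Cat and Gpx1, which remove hydrogen peroxide in peroxisomes and in the cytosol, showed overlapping groups. Cat read 895, 928 and 823 in Rb null livers and 998, 895 and 746 in wild type livers, so the wild type embryos spanned the mutant ones. Its change was 0.01 ± 0.10, with a 95% interval from -0.23 to 0.25 (limma adjusted p = 0.954). A dimmer Cat probe set (161877_f_at) had no overlap and leaned lower, at 496, 453 and 514 in Rb null livers, against 546, 537 and 605 in wild type livers, a change of -0.19 ± 0.08 (limma adjusted p = 0.140). The suffix letter f, like the g of the bright Prdx2 probe set, marks probes that other transcripts may share, and the Cat probe sets do not give the same picture. Gpx1 read 912, 829.5 and 779 in Rb null livers and 805, 795 and 759.8 in wild type livers, a change of 0.09 ± 0.07 with a 95% interval from -0.08 to 0.26 (limma adjusted p = 0.442). The 95% interval of the bright Prdx2 probe set ran from -0.45 to -0.17, and no difference between Prdx2 and Cat or Gpx1 was tested.

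Among the other enzymes, Txn1, the cytosolic thioredoxin that recharges peroxiredoxins, fell. It read 6481, 6488 and 7134 in Rb null livers, against 7754, 7819 and 8029 in wild type livers. The groups lay apart by about the range within the mutant group. The means of 6701 ± 375 in Rb null and 7867 ± 144 in wild type (SD, n = 3 each) gave a change of -0.23 ± 0.06 (limma adjusted p = 0.0211).

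Sod2, the manganese superoxide dismutase of mitochondria, fell by about as much as Prdx2. Its signals were 689, 631 and 599 in Rb null livers, against 842, 844 and 738 in wild type livers. No mutant embryo reached the lowest control embryo. The change was -0.32 ± 0.08 (limma adjusted p = 0.0291), to 79.1% of the wild type mean.

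Gclm, whose product raises the efficiency of the first enzyme of glutathione synthesis, fell as well. It read 2099, 2017 and 2261 in Rb null livers, against 2476, 2512 and 2549 in wild type livers. The wild type embryos were close together and all above the mutant ones. The change was -0.24 ± 0.06 (limma adjusted p = 0.0225).

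The remaining peroxiredoxins did not pass. Prdx3, the mitochondrial peroxiredoxin, read 2334, 3154 and 3176 in Rb null livers and 3248, 3406 and 3244 in wild type livers. Rb null embryo 1 stood well below the other embryos, which differed little. The change of -0.20 ± 0.11 (95% interval -0.46 to 0.05, limma adjusted p = 0.232) was -0.06 when that embryo was left out. Prdx4, the peroxiredoxin of the endoplasmic reticulum, read 1938, 1931 and 1905 in Rb null livers and 1730.4, 1959 and 1690.3 in wild type livers. The mutant embryos were nearly equal and lay within the wild type range. The change was 0.10 ± 0.07, with a 95% interval from -0.05 to 0.25 (limma adjusted p = 0.307).

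**Figure D2:**
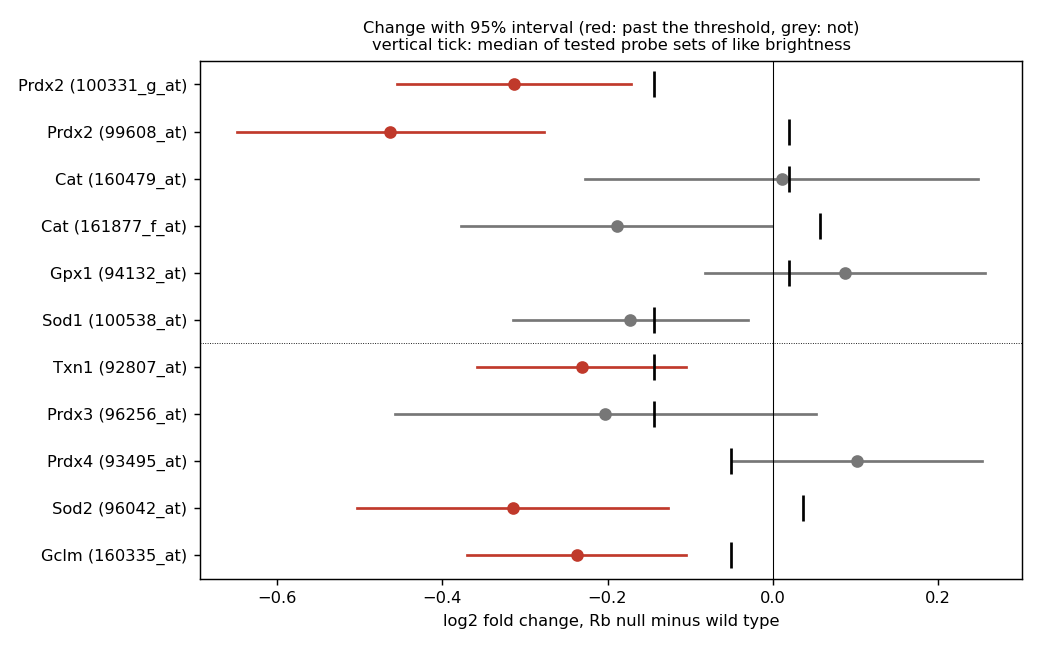
Log2 fold change (Rb null minus wild type) of the 11 tested probe sets with its 95% interval, red cell enzymes above the dotted line and the other enzymes below it, and with the median change of tested probe sets in the same bin of brightness as a vertical tick. The intervals of both Prdx2 probe sets, Sod2, Gclm, Txn1, Sod1 and the dimmer Cat probe set lie below 0, and those of Txn1 and Sod1 hold the tick of their bin.

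Set side by side, the red cell enzymes had a median log2 fold change of -0.08, from -0.31 to 0.09, and the other enzymes one of -0.23, from -0.32 to 0.10. The median was -0.20 over all 9 genes and 0.02 over all tested genes. No difference between the red cell enzymes and the others was tested.

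The promoters of Prdx2, Txn1, Sod2 and Gclm are shown because these were the genes called as deposited, and the windows of the other enzymes were searched alike. Each window holds the 250 bases before the RefSeq start on build GRCm38.p6, read 5′ to 3′ in the direction of the gene, for Prdx2 at chr8:84969372-84969621 (plus strand), Txn1 at chr4:57956412-57956661 (minus strand), Sod2 at chr17:13007589-13007838 (plus strand) and Gclm at chr3:122245307-122245556 (plus strand). Capitals mark matches, on either strand, to the core of the antioxidant response element bound by NRF2 (TGACNNNGC), to an E2F site (TTTNNCGC), to a GATA site (GATAAG) or to the CACC and GC boxes bound by Kruppel-like factors (CCNCNCCC).
Prdx2: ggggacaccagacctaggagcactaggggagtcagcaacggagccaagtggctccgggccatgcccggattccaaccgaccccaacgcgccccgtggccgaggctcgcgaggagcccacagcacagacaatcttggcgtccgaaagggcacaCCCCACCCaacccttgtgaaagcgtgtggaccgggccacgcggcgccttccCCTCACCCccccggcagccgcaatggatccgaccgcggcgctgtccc
Txn1: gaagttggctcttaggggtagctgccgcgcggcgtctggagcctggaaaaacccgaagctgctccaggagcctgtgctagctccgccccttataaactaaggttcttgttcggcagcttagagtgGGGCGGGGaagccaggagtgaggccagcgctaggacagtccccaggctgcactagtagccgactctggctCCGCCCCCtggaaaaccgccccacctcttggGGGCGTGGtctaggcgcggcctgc
Sod2: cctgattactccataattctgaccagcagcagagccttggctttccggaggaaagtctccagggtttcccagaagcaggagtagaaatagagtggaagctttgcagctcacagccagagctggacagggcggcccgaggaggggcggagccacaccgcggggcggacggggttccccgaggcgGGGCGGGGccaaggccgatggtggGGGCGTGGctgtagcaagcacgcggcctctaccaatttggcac
Gclm: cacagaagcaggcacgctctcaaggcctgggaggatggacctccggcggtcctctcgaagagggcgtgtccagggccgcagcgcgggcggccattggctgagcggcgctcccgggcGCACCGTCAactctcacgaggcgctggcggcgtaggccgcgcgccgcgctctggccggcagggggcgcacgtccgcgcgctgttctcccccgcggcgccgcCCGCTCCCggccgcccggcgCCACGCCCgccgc

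All 4 windows matched the Kruppel-like pattern, as did those of Cat, Sod1, Prdx1, Prdx3 and Prdx4, so that Gpx1 was the exception among the 10 genes. None of the 4 matched the E2F or GATA letters, and Prdx4 was the sole enzyme with an E2F match. The Prdx2 matches lie at -98 to -91 and -47 to -40 from the start, and Txn1 has 3 matches and Sod2 and Gclm have 2 each. The antioxidant response element core was found in Gclm at -134 to -126, in Sod1 at -56 to -48 and in Prdx1 at -133 to -125, each on the minus strand, so both in a gene that fell and in one that did not pass. Of 32851 windows of this length in the RefSeq table, 45.9% held the Kruppel-like pattern, 10.2% the antioxidant response element core, 6.55% the GATA letters and 4.28% the E2F letters. No marked match overlaps another in the 4 windows shown. The shares over all windows were not matched for G and C content, which was 42% in the Gpx1 window and 55.6% to 78.4% in those of the other enzymes. A match is a run of letters and was not tested as a binding site.

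Bright probe sets as a class leaned lower, and several of these enzymes are among them. Prdx2, Txn1, Sod1 and Prdx3 were among the brightest 10% of tested genes, of which 33.7% were lower and 6.25% higher in Rb null livers, and 2 of these 4 enzymes fell. Of the 5 enzymes outside it, 2 fell, beside 9.5% lower of all tested genes, the brightest included. These were Sod2 in bin 6, where 5.74% of probe sets were lower, and Gclm in bin 9, where 20.5% were. Against the median of -0.14 in bin 10, the brightest probe sets of Prdx2, Txn1 and Sod1 changed by -0.31, -0.23 and -0.17. Sod2 lay in bin 6, whose median was 0.04, and the dimmer Prdx2 probe set in bin 7, whose median was 0.02.

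**Figure D3:**
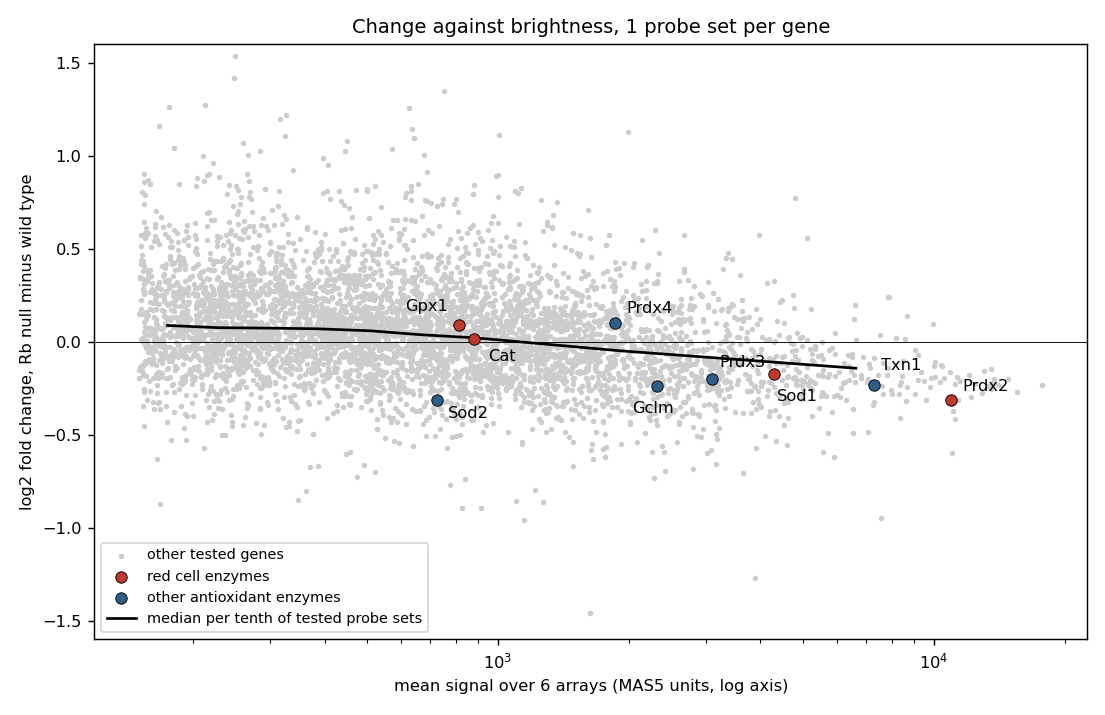
Log2 fold change (Rb null minus wild type) against mean signal over the 6 arrays (log axis), 1 probe set per gene, with red cell enzymes in red, the other enzymes in blue, other tested genes in grey and the median per brightness bin of tested probe sets as a line (6 genes lie outside the plotted range of 1.6). Txn1, Sod1 and Prdx3 sit just below the falling line, Sod2 sits well below it, and Prdx4 and Gpx1 sit above it.

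The calls differed in how they stood up to other ways of scaling the arrays. After cyclic loess normalization, which removes a trend with brightness, 1 of the 9 enzymes fell and none rose, beside 8.27% lower and 10.9% higher of all genes, and the counts were the same after quantile normalization, beside 8.76% and 10.6%. In both cases this was Sod2 (-0.36, limma adjusted p = 0.0211, and -0.37, adjusted p = 0.0197). The dimmer Prdx2 probe set kept its fall too (-0.48, limma adjusted p = 0.0064, and -0.49, adjusted p = 0.00577). For the bright Prdx2 probe set the change shrank to -0.09 (limma adjusted p = 0.0927) and -0.08 (adjusted p = 0.132). It shrank to -0.05 (limma adjusted p = 0.392) and -0.07 (adjusted p = 0.252) for Txn1, and to -0.17 (adjusted p = 0.0582) and -0.16 (adjusted p = 0.0778) for Gclm.

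Scaling to equal medians acted the other way. It shifted the median change of all genes by -0.12, and 1091 genes (20.7%) were then lower and 366 (6.94%) higher, against 501 lower and 690 higher as deposited. Relative to the median of all genes, Prdx2 then stood at -0.35, Sod2 at -0.34, Gclm at -0.27, Txn1 at -0.26 and Sod1 at -0.20. The brighter Cat probe set stood at -0.02, Gpx1 at 0.06 and Prdx4 at 0.07 on the same footing. Not taken relative to that median, their changes under this scaling were -0.12, -0.042 and -0.031, none past the threshold. Sod1 (limma adjusted p = 0.0191) and the dimmer Cat probe set (-0.31, adjusted p = 0.0346) passed under this scaling.

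**Figure D4:**
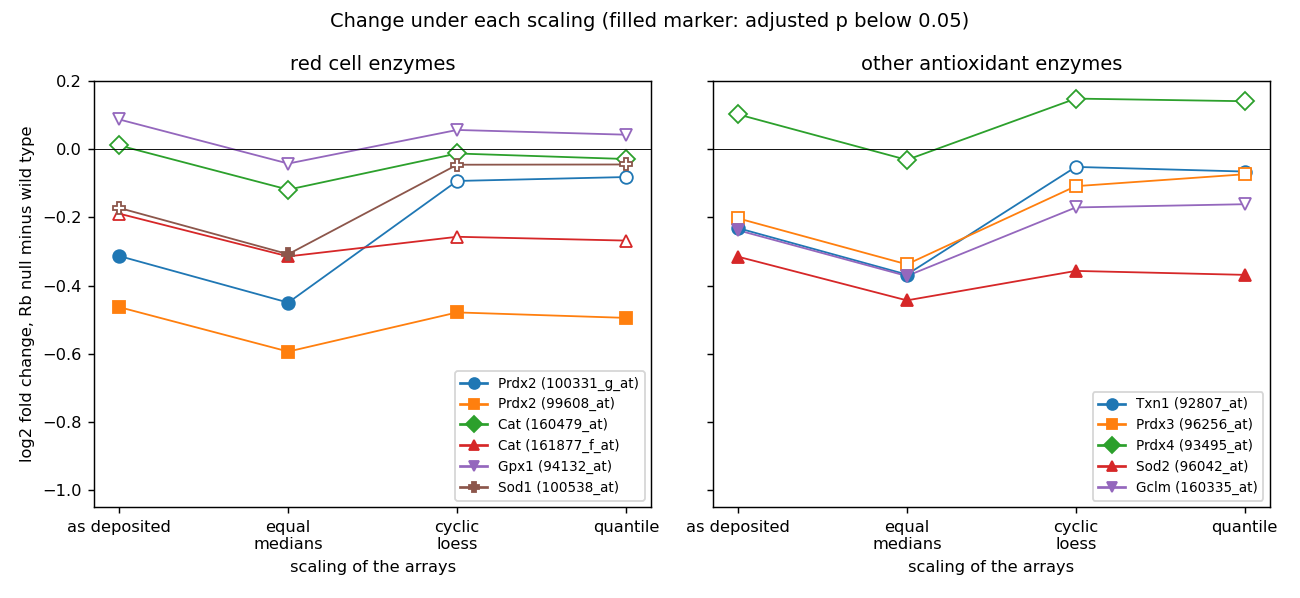
Log2 fold change (Rb null minus wild type) of each tested probe set as deposited and after 3 other scalings of the arrays, red cell enzymes left and the other enzymes right, with filled markers where the limma adjusted p was below 0.05. The dimmer Prdx2 probe set and Sod2 are filled under all 4 scalings, whereas the bright Prdx2 probe set, Txn1 and Gclm lose their fill under cyclic loess and quantile normalization.

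Several calls were lost on leaving out single embryos. The Prdx2 fall passed on leaving out any embryo, with limma adjusted p from 0.0100 to 0.0429 for the bright probe set and from 0.00937 to 0.0246 for the dimmer one. Gclm passed only without Rb null embryo 3 (limma adjusted p from 0.0173 to 0.0733). The Txn1 call was lost on leaving out either of the mutant embryos 1 (limma adjusted p = 0.0814) and 2 (0.0647), or of the wild type embryos 2 (0.0539) and 3 (0.0755). The Sod2 call went without the mutant embryos 2 (limma adjusted p = 0.0828) or 3 (0.0751), or the wild type embryos 1 (0.0900) or 2 (0.0768). Over all alternatives the changes stayed negative for these 4 genes, and adjusted p ran from 0.00285 to 0.132 for Prdx2, from 0.00559 to 0.0778 for Gclm, from 0.00584 to 0.392 for Txn1 and from 0.00456 to 0.0900 for Sod2.

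The partners of these enzymes were read from lists of 73 further genes, of which 54 had a probe set and 46 were tested. In Rb null livers 12 fell and 5 rose, beside 9.5% and 13.1% of all genes, and the median change was -0.14. The thioredoxin system had 3 falls and no rise among 10 tested (1 rise at an unadjusted limma p below 0.05), with a median of -0.26. Txnrd1, the cytosolic reductase that recharges Txn1, read 1179.5, 1352.0 and 1243 in Rb null livers, against 1781, 1610.2 and 1688 in wild type livers (-0.41 ± 0.07, limma adjusted p = 0.00516). Txnrd2, its mitochondrial counterpart, fell by 0.38 ± 0.06 and the glutaredoxin Glrx fell by 0.38 ± 0.07 on the log2 scale. The groups of all 3 genes lay apart.

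Enzymes of glutathione synthesis fell alongside Gclm. Gss, the glutathione synthetase, read 949, 1088 and 1154 in Rb null livers, against 1467, 1324 and 1561.5 in wild type livers (-0.43 ± 0.09, limma adjusted p = 0.0123). Another Gss probe set read -0.36 ± 0.16 with overlapping groups and did not pass (limma adjusted p = 0.141). Gclc, the catalytic partner of Gclm, read 874, 886 and 857 in Rb null livers, against 1027, 1198 and 978 in wild type livers (-0.27 ± 0.08, limma adjusted p = 0.0456). It did not pass on leaving out any embryo but wild type embryo 3, with limma adjusted p up to 0.109. Glo1, a glyoxalase that uses glutathione, fell by 0.22 ± 0.07 on the log2 scale (limma adjusted p = 0.0483). Glo1 did not pass under cyclic loess (-0.11, adjusted p = 0.238) nor on leaving out any embryo but Rb null embryo 3 (adjusted p up to 0.144). Another, dimmer Glo1 probe set read -0.38 ± 0.09 without overlap and passed as deposited (limma adjusted p = 0.0183). The glutathione reductase Gsr did not pass (-0.01 ± 0.06, 95% interval -0.14 to 0.13).

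The largest change of any listed antioxidant gene was a rise. Gpx3, the secreted glutathione peroxidase of plasma, read 857, 789 and 1036.5 in Rb null livers, against 337, 447 and 348 in wild type livers. Every mutant embryo was well above every control embryo, with a change of 1.14 ± 0.13 (limma adjusted p = 0.000899). The lipid peroxide reducing Gpx4 read 1669 ± 162 in mutant and 1484 ± 81.8 in wild type livers and did not pass (0.16 ± 0.08, limma adjusted p = 0.185).

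Genes listed for NADPH supply moved in both directions, 3 down and 3 up among 9 tested, beside 9.5% lower and 13.1% higher of all tested genes. The rises include Me1, which passed the signal filter only through its level in Rb null livers. G6pdx and Mthfd1 of this list had no probe set with a single symbol. Those that fell, Rpia, Pgd and Taldo1, encode enzymes of the pentose phosphate pathway, as do Tkt (-0.05 ± 0.06, limma adjusted p = 0.553) and Pgls (0.03 ± 0.10, adjusted p = 0.840), which did not pass. Rpia, a ribose phosphate isomerase, read 2312, 2517 and 2434 in Rb null livers, against 3173, 3183 and 3153 in wild type livers (-0.38 ± 0.05, limma adjusted p = 0.00212). Pgd, the phosphogluconate dehydrogenase and the only one of these 3 that itself makes NADPH, fell by 0.37 ± 0.09 on the log2 scale. The transaldolase Taldo1 fell by 0.26 ± 0.05. The Pgd call was lost without Rb null embryos 2 or 3 or wild type embryos 1 or 3 (limma adjusted p up to 0.0651). Those that rose were Idh2, the mitochondrial NADP-linked isocitrate dehydrogenase, with 1339, 1293 and 1223 in Rb null livers, against 944, 891 and 833 in wild type livers (0.51 ± 0.07, limma adjusted p = 0.00206), the mitochondrial transhydrogenase Nnt (0.45 ± 0.07) and the malic enzyme Me1 (0.49 ± 0.12). The Me1 means were 223 in mutant and 145 in wild type livers, and its call was lost without Rb null embryos 1 or 2 or wild type embryo 3 (adjusted p up to 0.0755).

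The list of superoxide dismutase partners held Ccs, Cox17, Atox1, Park7 and the secreted dismutase Sod3. All 5 were tested and 2 fell, beside 9.5% lower of all tested genes. Atox1, a copper chaperone, fell by 0.32 ± 0.08 and Cox17, a mitochondrial copper chaperone, fell by 0.18 ± 0.05 on the log2 scale, and 0 partners rose at either an adjusted or an unadjusted limma p below 0.05. Neither passed after cyclic loess (limma adjusted p = 0.057 for Atox1 and 0.379 for Cox17). The Atox1 call was also lost without Rb null embryos 1 or 2 or wild type embryo 3 (adjusted p up to 0.0979), and the Cox17 call on leaving out any embryo but wild type embryo 1 (adjusted p up to 0.117). Of 13 tested NRF2 regulators and targets, 1 fell and 1 rose, shares near the 9.5% and 13.1% of all genes. Hmox1, the inducible haem oxygenase, rose by 0.36 ± 0.05 (limma adjusted p = 0.00339), whereas Fth1, the heavy chain of the iron store ferritin, fell by 0.25 ± 0.05 on the log2 scale. Fth1 did not pass after cyclic loess (-0.04, limma adjusted p = 0.509) or without Rb null embryo 1 or wild type embryos 2 or 3 (adjusted p up to 0.0641). Another Fth1 probe set read -0.15 ± 0.11 with overlapping groups (limma adjusted p = 0.358). The mean of the Fth1 probe sets did not pass either (limma adjusted p = 0.0735). NRF2 itself (Nfe2l2) read 1125 ± 94.3 in mutant and 1249 ± 63.6 in wild type livers (limma adjusted p = 0.209). The classical target Nqo1 read 159 ± 8.75 in mutant livers and 190.4 ± 25.6 in wild type livers and did not pass either. Foxo3, a transcription factor known to drive antioxidant genes in red cell precursors, read 1277 ± 114 in mutant and 1469 ± 76.0 in wild type livers (-0.20 ± 0.08, limma adjusted p = 0.105). Foxo4 changed by -0.02 ± 0.06, and neither of the tested FoxO genes passed as deposited, while Foxo3 passed after median scaling (-0.33, limma adjusted p = 0.0115).

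**Figure D5:**
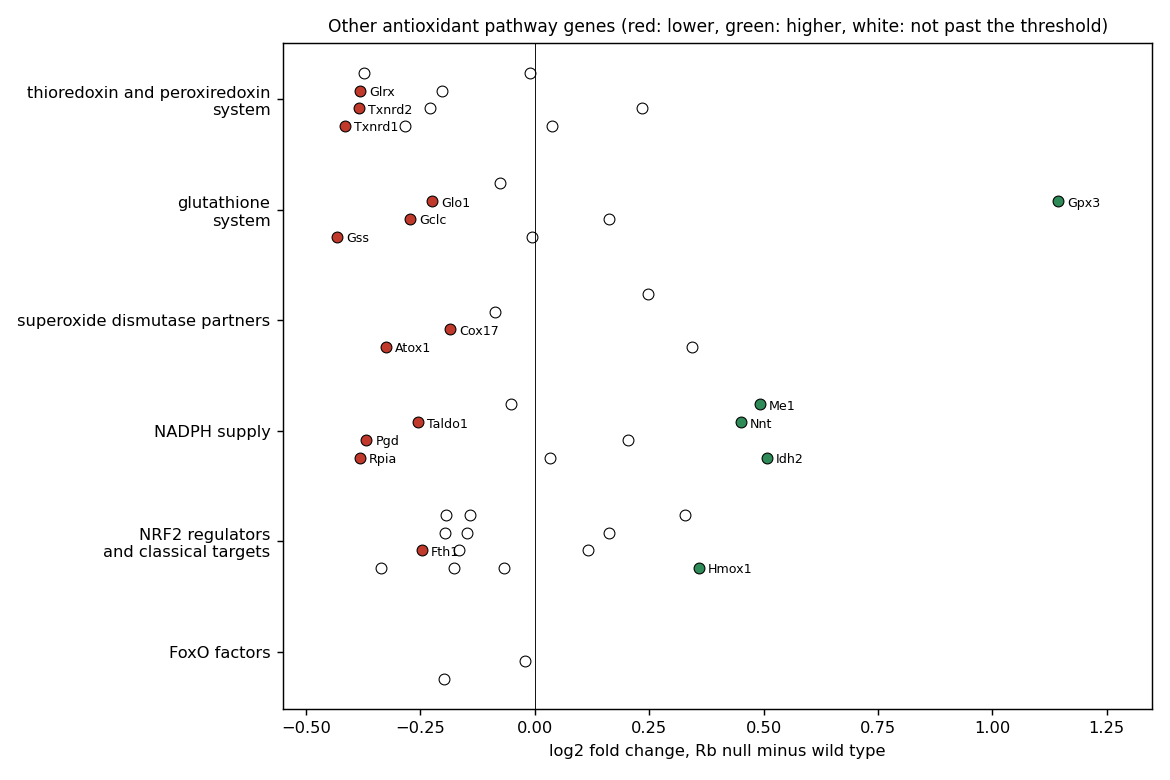
Log2 fold change (Rb null minus wild type) of the 46 tested partner genes by list, 1 point per gene at its brightest probe set, red where lower, green where higher and white where the limma adjusted p was not below 0.05. Gpx3 stands far to the right at 1.14, and the NADPH list holds 3 red and 3 green genes.

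The partner calls were also set against other scalings. After cyclic loess 10 partner genes were lower and 5 higher, beside 8.27% and 10.9% of all genes. The counts were equal after quantile normalization, beside 8.76% and 10.6%. Glo1, Atox1, Cox17 and Fth1 were the 4 of the 12 falls that did not pass under either. The 10 lower genes thus include some that were not called as deposited and are not named here. All 5 rises passed under both, but Me1 was tested only through its level in Rb null livers. With no filter the Me1 call was lost (limma adjusted p = 0.0540). Txnrd1 (-0.39), Gss (-0.42), Rpia (-0.30), Gpx3 (1.08) and Idh2 (0.50) were past the threshold after cyclic loess. Txnrd1, Txnrd2, Glrx, Gss, Rpia, Taldo1, Gpx3, Idh2, Nnt and Hmox1 also passed on leaving out any single embryo.

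Markers of cell types also differed between the genotypes. Of all tested genes 9.5% were lower and 13.1% higher, and the counts below are to be read beside these shares. Of 14 tested red cell markers 12 fell and 0 rose (0 also at an unadjusted limma p below 0.05), with a median of -0.49 and a summed signal from 60266 to 66137 in Rb null livers, against 83215 to 88828 in wild type livers. Bpgm, an enzyme of red cell glycolysis, fell by 1.46 ± 0.07 and Klf1, a regulator of red cell genes, fell by 0.60 ± 0.06 on the log2 scale. The summed signal of mesenchyme markers ran from 15684 to 17405 in Rb null livers, against 12177 to 12623 in wild type livers, with 6 of 10 higher. Granulocyte markers summed to between 11819 and 11929 in Rb null livers, against 9111 and 9226 in wild type livers, with 5 of 8 higher. Endothelial ones summed to between 5265 and 5705 in Rb null livers, against 4280.0 and 4429 in wild type livers, with 4 of 9 higher. Among those 4 was Emcn, whose mean of 231 in Rb null livers carried it past the signal filter although its wild type mean was 136. Macrophage markers summed to between 6900 and 7670 in Rb null livers, against 6360 and 6686 in wild type livers, with 4 of 11 higher. Megakaryocyte markers summed to between 1760 and 2060 in mutant livers, against 1094.5 and 1223 in wild type livers, with 2 of 3 higher. None of the tested markers in these 5 lists fell (0 also at an unadjusted limma p below 0.05). Adgre1, Fcer1g and Marco of macrophages, Itgb3 and Pf4 of megakaryocytes, Ctsg and Ly6g of granulocytes, Pecam1 of endothelium and Des, Pdgfrb and Vim of mesenchyme were below the signal filter. Of these, Marco read 104.9, 93.2 and 66.0 in Rb null livers, against 155.5, 176.5 and 162.4 in wild type livers, lower without overlap and not tested. Hepatoblast markers summed to between 56236 and 59479 in mutant livers, against 58920 and 62996 in wild type livers, with 2 lower and 2 higher of 16. These hepatoblast counts were near the shares of all tested genes. The 2 lower were the bright Alb and Apoa1, while the median log2 fold change was 0.06, with 5 of the 16 below 0. The part of these shifts in the enzyme values was not tested.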

How the data were processed

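Fetal livers of 3 Rb null and 3 wild type embryos were each read on 1 Affymetrix array from 6 ug of total RNA, per the labels' protocols. The deposited values are linear signal intensities per probe set, which the authors computed with MAS5, per the submitters' processing notes; its version and scaling target are not given in the sources used here. The 2% trimmed means lay between 500.22 and 500.25 on all arrays. Precision is limited by how few arrays there are.

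The platform annotation gave 1 symbol to 10833 of 12488 probe sets. After leaving out 66 array controls, log2 of signal plus 50.02 (0.1 of the trimmed mean) was fitted with limma 3.58.1 in R 4.3.3 (lmFit and eBayes, intensity trend, two-sided) for probe sets with a mean signal above 150.1 (0.3 of the trimmed mean). The procedure was tested on simulated data. No detection calls were used here.

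The enzymes and the lists were chosen with earlier results of these data known. Partner and marker genes were named by rule, taking from each list at most 6 called genes in order of absolute change, or the 2 of smallest p where under 2 were called; Slc4a1, Pf4, Rb1, Gpx4, Gsr, Nfe2l2, Nqo1, Gpx7, Keap1, Slc7a11, Tkt, Pgls and Marco were named outside it, after their values were seen. Promoter sequences are RefSeq's (GRCm38.p6). Alternatives were quantile, median and cyclic loess scaling, offsets of 10.0 and 150.1, no filter or one of 500.2, no or a robust trend, a replicate block, averaging the probe sets of a gene, no suffixed probe sets, a 2-fold minimum and each embryo left out.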

Additional observations from a re-analysis of the deposited data

How the results depend on the processing

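The number of enzymes that fell, 4 as deposited, was 1 after quantile and 1 after cyclic loess normalization, 2 with no filter, 2 with no intensity trend and 0 with a 2-fold minimum, and ran from 1 to 3 on leaving out single embryos. Of all tested genes 9.5% were lower as deposited, 8.76% after quantile and 8.27% after cyclic loess normalization. With no intensity trend 357 genes were lower, against 501 as deposited, and with no filter, which tests more genes, 348. Among the red cell enzymes the count of 1 became 0 after quantile and cyclic loess normalization and with the 2-fold minimum, and 2 after median scaling or with the replicate block. Among the other enzymes the count of 3 became 1 after quantile and cyclic loess normalization, with no filter and with no intensity trend, 0 with the 2-fold minimum, and ran from 0 to 2 without single embryos. With no filter the Sod2 (limma adjusted p = 0.0501) and Txn1 (adjusted p = 0.0514) calls were lost, and with no intensity trend those of Gclm (adjusted p = 0.0512) and Txn1 (adjusted p = 0.055). No enzyme was called higher under any of these alternatives. The smaller and larger offsets, the stricter filter, the robust trend, the mean of probe sets and the choice without suffixed probe sets left the 4 enzymes called.

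Of the partner genes, 19 fell after median scaling against 12 as deposited, 0 fell and 1 rose with the 2-fold minimum, and between 7 and 10 fell without single embryos. Of all tested genes, median scaling gave 1091 lower and 366 higher, the stricter filter 428 higher and the 2-fold minimum 3 lower and 27 higher; leaving out single embryos gave 256 to 429 lower and 419 to 553 higher. Over probe sets, where 617 were lower and 867 higher as deposited, the counts were 1361 and 480 after median scaling, 5 and 35 with the 2-fold minimum, 513 higher with the stricter filter, and 317 to 529 lower and 532 to 712 higher without single embryos.

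The Cat change of 0.01 turned to -0.029 after quantile normalization, -0.012 after cyclic loess, -0.12 after median scaling, -0.024 without Rb null embryo 2, -0.096 without wild type embryo 3 (its highest value was 0.10, without wild type embryo 1) and -0.089 for the mean of its probe sets, none past the threshold. Gpx1 turned to -0.042 and Prdx4 to -0.031 after median scaling (0.061 and 0.072 relative to the median of all genes), and Foxo4 ran from -0.043 to 0.011 without single embryos, above 0 without Rb null embryo 2 alone. With the replicate number as a block 5 enzymes were lower, Sod1 being added (limma adjusted p = 0.0475). Deviations of same-numbered embryos correlated with r of -0.06, 0.05 and 0.27, and embryos did not all correlate best with their own number, so the numbers were not taken as pairs. The causes of these losses were not tested.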

Other observations

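Some partner genes lay below the signal filter and were not tested. Gpx7, a peroxidase of the endoplasmic reticulum, read 86.7, 90.9 and 92.0 in Rb null livers, against 59.5, 45.1 and 54.5 in wild type livers, without overlap. Keap1, the repressor of NRF2, read 60.5, 78.1 and 75.7 in Rb null livers, against 82.9, 93.8 and 144.9 in wild type livers, also without overlap. The glutamate-cystine transporter gene Slc7a11 read 25.7, 37.3 and 43.8 in Rb null livers, against 35.5, 31.7 and 20.9 in wild type livers, and these groups overlapped. These signals were not shown to be above background.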
